A study of Mus musculus with 6 samples.

Results

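The 10 genes described here encode 8 chemokines (Ccl2, Ccl7, Cxcl1, Cxcl5, Cxcl10, Cxcl12, Cxcl14 and Cx3cl1) and 2 receptors of CXCL12 (Cxcr4 and Ackr3), each of them 1 row among the 22322 genes of the deposited table. They were chosen by gene symbol with their PTN and Control values already known, so what follows on this contrast for them is a description and supports nothing. The PTN group has 3 libraries, made from neural stem progenitor cells of wild-type mice that had PTN added and were taken 24 h later. The Control group has 3 libraries from cells of the same kind that had PBS instead, also at 24 h. PTN is an abbreviation in the labels and is read here as pleiotrophin, a secreted heparin-binding growth factor. The series title speaks of conditioned medium, whose preparation is not described in the labels. No source used here gives its dose, the cultures or animals behind each replicate or the sex of the cells, so any p-value reflects the spread between these libraries alone, which may be technical.

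Chemokines are small secreted proteins that guide moving cells along gradients. They bind receptors with 7 membrane passes that couple to inhibitory G proteins, and they are held on cell surfaces and in matrix by heparan sulfate chains. Inflammatory chemokines are switched on by cytokines through NF-kB and interferon-responsive factors. Homeostatic ones such as CXCL12 are made steadily, and in the developing and adult brain CXCL12 acts through CXCR4 to position neural progenitors, interneurons and granule cells. ACKR3 binds CXCL12 as well, but mainly takes it up for destruction instead of signalling through G proteins.

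Totals ranged from 19267764 to 25975205 counts in PTN libraries and from 21268297 to 26341745 in Control libraries. The summed level of 15 listed neural stem and progenitor genes, in CPM (counts scaled to library size by TMM), was 11231 to 12304 in PTN and 8526 to 9500 in Control libraries. All 15 were detected and tested. Of these, 2 were called higher and 1 lower (13.3% and 6.67%, against 4.93% and 3.06% of all tested genes). The 15 had a median log2 fold change of 0.15, with 10 positive and 5 negative, so the higher sum was not shared by all of them. The 10 listed neuron genes summed to 429 to 688 CPM in PTN and 317 to 452 CPM in Control libraries, with a median log2 fold change of 0.41. Of these 10, Gap43 and Eno2 were called higher and 0 lower (20% higher, against 4.93% of all tested genes). PTN libraries lay wholly above Control libraries for 5 of the 10 and wholly below for Tubb3, against 15.7% and 17.1% of tested genes. The 10 listed astrocyte genes summed to 3944 to 8160 CPM in PTN and 9609 to 9900 CPM in Control libraries. Of these, 3 were called lower and 0 higher (30% lower, against 3.06% of all tested genes). Their median log2 fold change was -0.59, with 4 positive and 6 negative. PTN library 3 (PTN 3) had 7.96 CPM of transcripts from 4 Y-linked genes, against 30.3 and 74.2 CPM in the other PTN libraries and 49.3 to 102 CPM in Control libraries. Its share of mitochondrial counts, 3.97%, was the lowest of the 6 libraries, against 8.12% and 8.10% in the other PTN libraries and 4.47% to 7.47% in Control libraries. PTN 2 held the highest astrocyte sum of its group, 8160 CPM, against 3944 CPM in PTN 1 and 4615 CPM in PTN 3. These values move with some results below and their part in them was not tested. In bulk RNA, fewer cells of a type and less RNA per cell cannot be told apart.

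The chemokine families are named for the spacing of the first conserved cysteines, and the stretches that encode them are shown because the ligands fall into different receptor systems along that line. Each stretch is read 5′ to 3′ from the coding sequence of the principal GENCODE M21 transcript, with the codons of the 2 cysteines in capitals.
Ccl2: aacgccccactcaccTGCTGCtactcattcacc
Ccl7: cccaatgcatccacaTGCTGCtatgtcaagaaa
Cxcl1: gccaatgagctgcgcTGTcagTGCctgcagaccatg
Cxcl5: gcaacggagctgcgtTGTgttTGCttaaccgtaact
Cxcl10: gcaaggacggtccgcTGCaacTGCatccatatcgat
Cxcl12: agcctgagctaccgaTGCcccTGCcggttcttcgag
Cxcl14: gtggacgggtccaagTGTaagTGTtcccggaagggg
Cx3cl1: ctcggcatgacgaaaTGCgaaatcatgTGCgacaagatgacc
Ccl2 and Ccl7 have 0 codons between the 2 cysteine codons, the C-C arrangement of ligands for CCR receptors. Cxcl1, Cxcl5, Cxcl10, Cxcl12 and Cxcl14 have 1 codon between them, the C-X-C arrangement, and Cx3cl1 has 3. Codons for glutamate, leucine and arginine stand directly before the first cysteine codon in Cxcl1 and Cxcl5 but in none of the other 6 ligands. That triplet of residues is the known mark of chemokines that attract neutrophils through CXCR2. Cx3cl1 is also the longest ligand, with 395 codons against 93 to 148 in the other 7, since it carries a mucin-like stalk and a membrane anchor.

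RefSeq's promoter table (GRCm38.p6) matched 7 of the 10 genes by symbol, which were Cxcl1, Cxcl10, Cxcl12, Cxcl14, Cx3cl1, Ackr3 and Cxcr4. The 250 bases before the annotated start are printed for 4 of them. These are the inflammatory ligands Cxcl1 and Cxcl10, which were higher in PTN, the homeostatic ligand Cxcl12, and Cxcl14, which was lower. Ccl2, Ccl7 and Cxcl5, which were also higher in PTN, were not matched. Capitals mark matches, on either strand, to the broad NF-kB pattern GGGNNNNNCC, the AP-1 pattern TGANTCA or GAAANNGAAA, a pair of half-sites of interferon response elements.
Cxcl1, chr5:90890995-90891244, plus strand: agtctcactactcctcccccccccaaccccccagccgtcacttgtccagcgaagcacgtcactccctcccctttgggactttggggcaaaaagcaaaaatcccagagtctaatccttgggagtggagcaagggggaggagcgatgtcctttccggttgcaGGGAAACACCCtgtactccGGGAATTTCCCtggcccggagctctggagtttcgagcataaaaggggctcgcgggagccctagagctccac
Cxcl10, chr5:92348890-92349139, minus strand: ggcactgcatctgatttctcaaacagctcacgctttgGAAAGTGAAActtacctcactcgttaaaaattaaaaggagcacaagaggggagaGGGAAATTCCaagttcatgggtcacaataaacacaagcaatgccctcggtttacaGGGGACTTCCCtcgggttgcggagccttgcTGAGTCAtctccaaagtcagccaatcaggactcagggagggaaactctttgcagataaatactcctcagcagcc
Cxcl12, chr6:117168285-117168534, plus strand: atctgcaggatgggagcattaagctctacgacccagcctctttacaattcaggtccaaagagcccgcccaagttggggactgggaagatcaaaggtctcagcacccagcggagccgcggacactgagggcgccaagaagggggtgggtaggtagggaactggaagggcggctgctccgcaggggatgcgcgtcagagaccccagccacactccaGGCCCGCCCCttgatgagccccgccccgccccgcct
Cxcl14, chr13:56296552-56296801, minus strand: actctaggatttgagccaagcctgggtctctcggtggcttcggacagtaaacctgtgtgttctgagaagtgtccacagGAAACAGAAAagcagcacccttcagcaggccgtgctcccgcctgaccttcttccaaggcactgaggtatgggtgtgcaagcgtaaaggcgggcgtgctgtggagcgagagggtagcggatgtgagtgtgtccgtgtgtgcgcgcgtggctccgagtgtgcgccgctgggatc
The broad pattern was present in Cxcl1, Cxcl10 and Cxcl12, and in 45.8% of all 32851 promoters in the table. A narrower form, GGGNNNTTCC, which overlaps the broad one and was chosen after these sequences were seen, was present in Cxcl1 and Cxcl10 of the 7, and in 4.65% of all promoters. Counting back from -1, the base before the start, broad matches in Cxcl1 began at -90, -89, -71 and -70, of which all but that at -90 also match the narrower form. In Cxcl10 broad matches began at -159, -104 and -103, of which those at -159 and -104 also match the narrower form, beside TGANTCA at -74 and GAAANNGAAA at -213. TGANTCA was present in 6.75% and GAAANNGAAA in 2.98% of all promoters, and GAAANNGAAA also stood at -172 in Cxcl14. In Cx3cl1, Ackr3 and Cxcr4 none of these letters was found in this window. Matches describe the sequence and show no binding.

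The ligands for CCR2 were nearly silent in Control cells and present in PTN cells. Ccl2, which draws monocytes through CCR2, had 4.93, 2.59 and 13.8 CPM in PTN libraries 1 to 3, against 0.507, 0.115 and 0.515 CPM in Control libraries 1 to 3. All PTN libraries lay above all Control libraries, and PTN 3 was the highest, 5.35 times PTN 2. The Control values rest on 12, 3 and 11 counts. The fitted level was 18.8-fold higher in PTN, a log2 fold change of 4.24 ± 0.73 (SE, n = 3 each), and 10.01-fold higher without PTN 3.

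Ccl7, the neighbouring gene on chromosome 11 and a ligand of several CCR receptors, had 0.931, 0.803 and 4.01 CPM in PTN libraries 1 to 3, against 0.296, 0.153 and 0.0936 CPM in Control libraries 1 to 3. The groups did not overlap, PTN 3 again stood well above the other PTN libraries, and the Control values rest on 7, 4 and 2 counts. Ccl7 was 10.1-fold higher in PTN (log2 fold change 3.34 ± 0.78, SE, n = 3 each) and 4.66-fold higher without PTN 3. The next chemokine genes after Ccl7 on that chromosome are Ccl11, Ccl12, Ccl8 and Ccl1. Ccl11 had 5, 0 and 1 counts in PTN libraries and 0, 1 and 0 in Control libraries, Ccl12 had 0, 0 and 0 counts in PTN and 0, 2 and 0 in Control, and the other two together had 1 count in a single Control library. These neighbours therefore stayed at the detection limit in both groups.

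**Figure D1:**
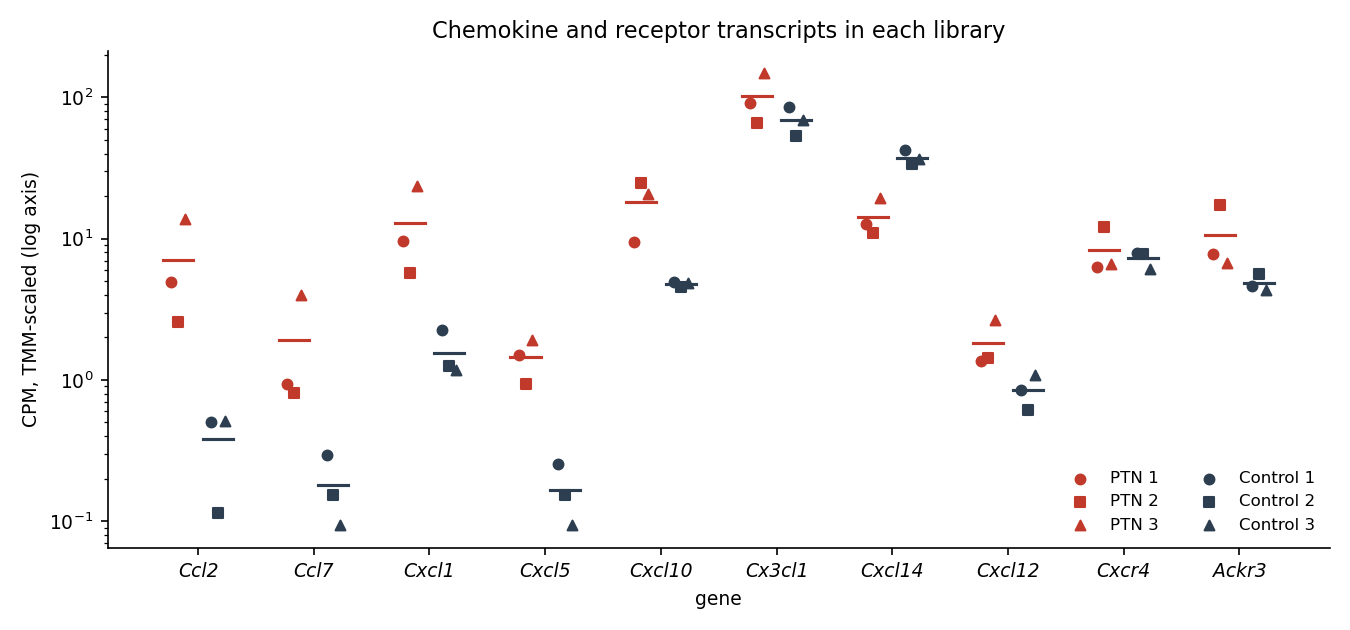
TMM-scaled CPM of the 10 genes (log axis) in each of the 3 PTN and 3 Control libraries, with a bar at each group mean. Ccl2, Ccl7, Cxcl1, Cxcl5, Cxcl10, Cxcl12 and Ackr3 lie higher in all PTN libraries than in any Control library, Cxcl14 lies lower, and Cx3cl1 and Cxcr4 overlap.

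Both CXCR2 ligands were higher in PTN cells. Cxcl1 had 9.58, 5.75 and 23.7 CPM in PTN libraries 1 to 3, against 2.24, 1.26 and 1.17 CPM in Control libraries 1 to 3. Its order among PTN libraries was that of Ccl2, and the groups did not overlap. Cxcl1 was 8.29-fold higher (log2 fold change 3.05 ± 0.53, SE, n = 3 each), or 4.92-fold without PTN 3. Cxcl5 had 1.51, 0.936 and 1.92 CPM in PTN libraries 1 to 3, against 0.254, 0.153 and 0.0936 CPM in Control libraries 1 to 3. Its PTN libraries lay closer together than those of Cxcl1, the highest being 2.06 times the lowest, while its Control libraries held 6, 4 and 2 counts. Cxcl5 was 8.41-fold higher (log2 fold change 3.07 ± 0.50, SE, n = 3 each), and its fold lay between 6.83 and 10.9 when any 1 library was left out.

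Between Cxcl5 and Cxcl1 on chromosome 5 lie Ppbp, Pf4, Cxcl3 and Cxcl15, and Cxcl2 follows Cxcl1. Cxcl2, a further CXCR2 ligand, had 5, 4 and 12 counts in PTN libraries and 2, 1 and 0 in Control libraries. Ppbp had 2, 1 and 14 counts in PTN and 2, 0 and 2 in Control libraries, and Pf4 had 9, 3 and 11 in PTN and 6, 2 and 3 in Control libraries. Cxcl3 and Cxcl15 had 0 counts in all 6 libraries. Within this cluster Cxcl1 and Cxcl5 were the genes with enough counts to be tested, and the 3 with any other counts were each highest in PTN 3.

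Cxcl10, an interferon-inducible ligand of CXCR3 that attracts activated T cells, followed another order. It had 9.43, 24.97 and 20.6 CPM in PTN libraries 1 to 3, against 4.90, 4.55 and 4.82 CPM in Control libraries 1 to 3. The highest library was PTN 2, which was the lowest of the PTN libraries for Ccl2, Ccl7, Cxcl1 and Cxcl5, and the Control libraries were nearly level. Cxcl10 was 3.85-fold higher in PTN (log2 fold change 1.94 ± 0.33, SE, n = 3 each), with a fold between 3.14 and 4.79 when any 1 library was left out. Its relatives Cxcl9, with 0, 4 and 1 counts in PTN and 0, 0 and 3 in Control libraries, and Cxcl11, with 0 counts in all 6, were not detected well enough to be compared.

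The ligands with the highest level in Control cells behaved otherwise. Cx3cl1, the membrane-bound chemokine through which neurons address microglia, had 91.5, 65.6 and 148 CPM in PTN libraries 1 to 3, against 85.3, 52.9 and 69.6 CPM in Control libraries 1 to 3. The groups overlapped, since PTN 2 lay below Control 1 and Control 3, while PTN 1 and PTN 3 lay above every Control library (log2 fold change 0.55 ± 0.30, SE, n = 3 each, and a fold of 1.47, or 1.13 without PTN 3). Cxcl14, a conserved homeostatic chemokine whose receptor is still debated, was the single ligand that was lower in PTN. It had 12.6, 11.1 and 19.4 CPM in PTN libraries 1 to 3, against 42.3, 33.6 and 36.6 CPM in Control libraries 1 to 3. The groups did not overlap, and PTN 3 lay nearest to the Control libraries. Cxcl14 was 2.61-fold lower (log2 fold change -1.39 ± 0.23, SE, n = 3 each), and 2.35-fold to 3.16-fold lower when any 1 library was left out.

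**Figure D2:**
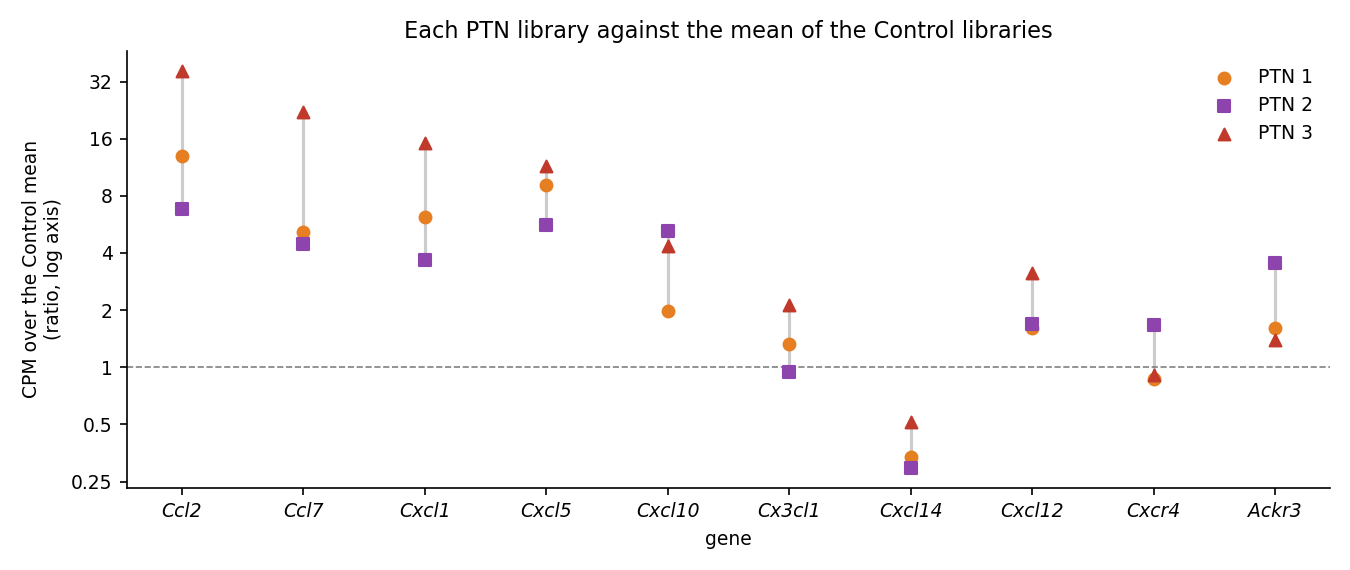
CPM of each PTN library divided by the mean of the 3 Control libraries (ratio, log axis, dashed line at 1), by gene. PTN 3 (triangles) is the highest PTN library for Ccl2, Ccl7, Cxcl1, Cxcl5, Cx3cl1, Cxcl14 and Cxcl12, and PTN 2 (squares) for Cxcl10, Cxcr4 and Ackr3.

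Within the CXCL12 axis the fold lay between 1.15 for Cxcr4 and 2.18 for Ackr3. Cxcl12 was scarce, with 1.36, 1.43 and 2.65 CPM in PTN libraries 1 to 3, against 0.845, 0.612 and 1.08 CPM in Control libraries 1 to 3. The groups did not overlap, though PTN 1 at 35 counts and Control 3 at 23 counts lay close (log2 fold change 1.10 ± 0.40, SE, n = 3 each). Cxcr4, the signalling receptor, had 6.33, 12.2 and 6.61 CPM in PTN libraries 1 to 3, against 7.86, 7.76 and 6.13 CPM in Control libraries 1 to 3. The groups overlapped, PTN 2 alone standing out (log2 fold change 0.21 ± 0.28, SE, n = 3 each), and without PTN 2 the log2 fold change was -0.17.

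Ackr3, the scavenging receptor, had 7.84, 17.3 and 6.76 CPM in PTN libraries 1 to 3, against 4.65, 5.62 and 4.35 CPM in Control libraries 1 to 3. Every PTN library lay above every Control library and PTN 2 was again the highest (log2 fold change 1.12 ± 0.35, SE, n = 3 each, a fold of 2.18, or 1.497 without PTN 2). Per length, in the deposited FPKM, the level of Cxcr4 was 1.68, 1.58 and 2.21 times that of Ackr3 in PTN libraries 1 to 3, against 3.804, 3.25 and 3.17 times in Control libraries 1 to 3. The ratio was thus lower in every PTN library, with Cxcr4 above Ackr3 in all 6.

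All 10 genes passed the filter on low counts, but Ccl2, Ccl7 and Cxcl5 passed through their PTN libraries and not through Control. At an edgeR quasi-likelihood adjusted p under 0.05 over all genes, 5 of the 10 (Ccl2, Ccl7, Cxcl1, Cxcl5 and Cxcl10) were called higher and 1 (Cxcl14) lower, against 4.93% called higher and 3.06% called lower, or 7.99% in either direction, of the 13161 genes tested. PTN libraries lay wholly above Control libraries for 7 of the 10 and wholly below for 1, against 15.7% and 17.1% of tested genes. The genes were chosen from this contrast, so nothing is read from these counts. With 1 library left out, Ccl2 was not called without Control 1, Ccl7 without any 1 of Control 1, Control 2 and Control 3, Cxcl1 without Control 3, and Cxcl10 without Control 1 or Control 3. Ackr3 was called without PTN 3, with a fold of 2.57.

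The PTN libraries differed more from each other for some of these genes than for others. The SD of log2(CPM + 0.5) over the 3 PTN libraries was 1.12 for Ccl2, 1.00 for Ccl7 and 0.99 for Cxcl1, larger than in 99.3%, 98.9% and 98.8% of tested genes. It was 0.38 for Cxcl5 and 0.41 for Cxcl14, larger than in 75.3% and 78.4% of tested genes. Over the Control libraries the SD of Cxcl10 was 0.051, larger than in only 6.63% of tested genes, and 0.72 over the PTN libraries, larger than in 95.6%. PTN 3, the library with 7.96 CPM from Y-linked genes and 3.97% mitochondrial counts, was the highest and PTN 2, with the astrocyte sum of 8160 CPM, the lowest PTN library for Ccl2, Ccl7, Cxcl1 and Cxcl5. PTN 2 was the highest for Cxcl10, Ackr3 and Cxcr4. The part of these values in the differences was not tested.

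Levels can be compared between genes only per length, and the deposited FPKM values are used for that. In PTN cells the order of mean FPKM ran from Cx3cl1 (30.8 ± 12.5, SD, n = 3) through Cxcl10 (16.7), Cxcl1 (13.6), Ccl2 (8.73), Cxcl14 (7.85), Cxcr4 (6.03), Ackr3 (3.47), Ccl7 (2.38) and Cxcl5 (0.923) to Cxcl12 (0.443 ± 0.145). The ranges of each gene and the next in this order overlapped over the 3 PTN libraries. In Control cells the order ran from Cx3cl1 (21.2 ± 5.05, SD, n = 3) and Cxcl14 (20.6 ± 2.56) through Cxcr4 (5.42), Cxcl10 (4.36), Cxcl1 (1.63), Ackr3 (1.59), Ccl2 (0.470), Cxcl12 (0.260) and Ccl7 (0.227) to Cxcl5 (0.107). Here the ranges did not overlap between Cxcl14 and Cxcr4, Cxcr4 and Cxcl10, Cxcl10 and Cxcl1, or Ackr3 and Ccl2.

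Taking the summed FPKM of the 8 ligands as a whole, Cxcl14 made up 11.1%, 10.1% and 8.65% of it in PTN libraries 1 to 3, against 40.2%, 45.0% and 42.0% in Control libraries 1 to 3. Cxcl1 made up 16.2%, 10.04% and 20.2% in PTN libraries 1 to 3, against 4.07%, 3.23% and 2.56% in Control libraries 1 to 3. Ccl2 made up 9.75%, 5.29% and 13.9% in PTN libraries 1 to 3, against 1.09%, 0.345% and 1.33% in Control libraries 1 to 3. The share of Cxcl14 was thus lower and those of Cxcl1 and Ccl2 higher in every PTN library than in any Control library, while the share of Cx3cl1 was 33.3% to 45.1% in PTN and 40.04% to 45.4% in Control libraries. The sum itself was 61.7, 60.3 and 122.5 FPKM in PTN libraries 1 to 3, against 58.0, 40.6 and 48.0 FPKM in Control libraries 1 to 3. PTN 3 held about as much ligand transcript per length as both other PTN libraries together. FPKM values are shares of each library, so no absolute amount follows from them.

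**Figure D3:**
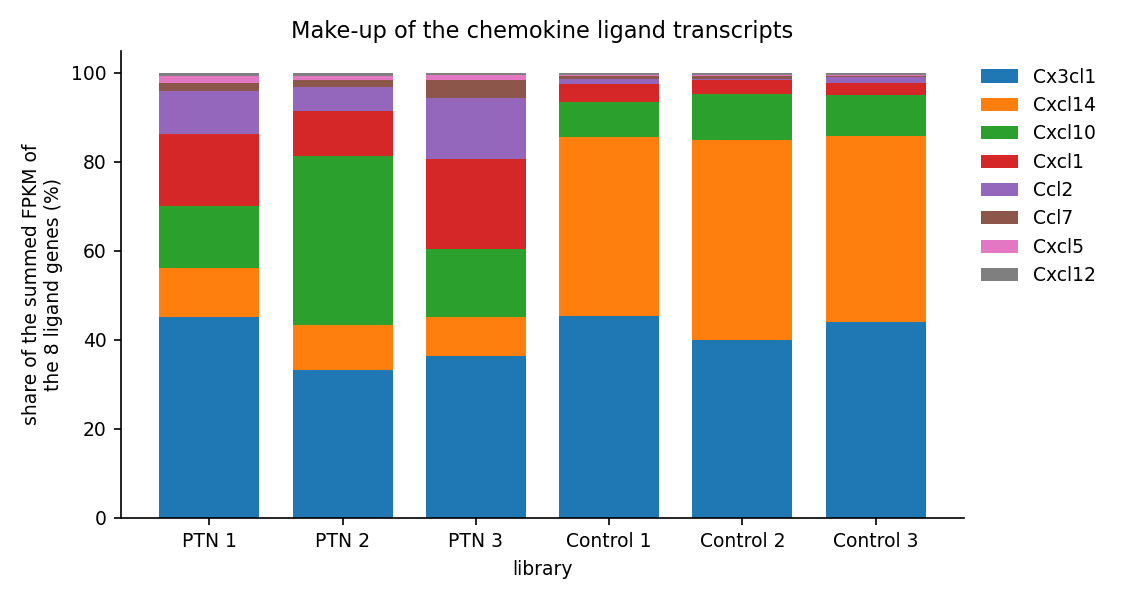
Share of the summed FPKM of the 8 ligand genes (percent) taken by each ligand in the 3 PTN and 3 Control libraries. Cxcl14 takes 8.65% to 11.1% in PTN and 40.2% to 45.0% in Control libraries, and in PTN libraries Cxcl10, Cxcl1 and Ccl2 take larger shares.

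The signalling receptors of the inflammatory ligands were close to absent from these cells. Ccr2, the receptor of CCL2 and CCL7, had 0, 0 and 1 counts in PTN and 0, 0 and 0 in Control libraries. Cxcr2, the receptor of CXCL1 and CXCL5, had 0, 1 and 1 counts in PTN and 0, 1 and 1 in Control libraries. Cxcr3, the receptor of CXCL10, had 0 counts in all PTN libraries, which allows up to 0.0445 CPM over the group, and 0, 0 and 1 in Control libraries. Cx3cr1, the receptor of CX3CL1 and a defining gene of microglia, had 0, 0 and 1 counts in PTN and 0, 2 and 4 in Control libraries. These limits cover counting error only. Of 23 other chemokine receptor genes in the list, 21 did not pass the filter, 5 of them with 0 counts in all 6 libraries.

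Of the 2 receptors tested, 0 were called by edgeR's quasi-likelihood test, 2 had an unadjusted p under 0.05, and 0 were called by DESeq2 or limma-voom. Both are atypical receptors that capture chemokines. Ackr4, which takes up CCR7 ligands, had 24, 9 and 28 counts in PTN libraries and 58, 45 and 51 in Control libraries (edgeR adjusted p = 0.124, log2 fold change -1.24 ± 0.45, SE, n = 3 each). The groups did not overlap, and without PTN 3 the edgeR adjusted p was 0.0375 (range 0.0375 to 0.297 over the libraries left out). Ackr1 was at 1.12 CPM in PTN and 0.547 CPM in Control cells, and was not called. Its PTN libraries all lay above its Control libraries.

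Among 30 other chemokine ligand genes 4 passed the filter and 1 rose, against 4.93% called higher among all tested genes. Ccl28, an epithelial chemokine that binds CCR10 and CCR3, had 76, 147 and 60 counts in PTN libraries and 27, 30 and 28 in Control libraries. All PTN libraries lay above Control, and PTN 2 was the highest, as for Cxcl10 and Ackr3. Ccl28 was 3.50-fold higher (log2 fold change 1.81 ± 0.37, SE, n = 3 each, edgeR adjusted p = 0.0229). With 1 library left out the edgeR adjusted p ranged from 0.0133 to 0.103, and it missed the threshold when any single Control library was dropped. Cxcl16, Ccl25 and Ccl27a were tested and not called, and the value of Ccl27a is uncertain, since near-identical copies of the gene can share its reads. The 26 ligands that did not pass the filter had at most 14 counts in any library, 8 of them 0 in all 6.

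Genes that carry the signal of chemokine receptors inside the cell were well detected, with 38 of 42 tested, of which 5 rose and 0 fell, 13.2% against 4.93% of all tested genes. The list had a median log2 fold change of 0.25, beside 0.030 over all tested genes. Pik3r5, the regulatory subunit of the PI3-kinase that G protein βγ subunits switch on, had 324, 236 and 243 counts in PTN libraries and 70, 49 and 55 in Control libraries. The groups lay far apart, at 4.83-fold (log2 fold change 2.27 ± 0.23, SE, n = 3 each, edgeR adjusted p = 0.00187). Its catalytic partner Pik3cg had 1, 6 and 4 counts in PTN and 1, 3 and 2 in Control libraries and was not tested.

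Ptk2b, a calcium-responsive focal adhesion kinase, was at 12.1 CPM in PTN and 3.88 CPM in Control cells, 3.12-fold higher (edgeR adjusted p = 0.0067). Grk3, a kinase that phosphorylates active receptors for desensitisation, was 1.82-fold higher (edgeR adjusted p = 0.00768, but 0.0758 without Control 3). Rgs4, which speeds up the switching off of inhibitory G proteins, was 1.91-fold higher (edgeR adjusted p = 0.0368), and the phospholipase gene Plcb1 2.16-fold higher (edgeR adjusted p = 0.0496). Neither of these was called without any 1 of the libraries other than PTN 3, where the edgeR adjusted p reached 0.151 for Rgs4 and 0.166 for Plcb1. The inhibitory G protein genes Gnai1, Gnai2 and Gnai3 and the arrestin genes Arrb1 and Arrb2 were not called. Gnai2, the most abundant of them, was at 592 CPM in PTN and 608 CPM in Control cells.

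Of 26 tested genes for proteases and surface carriers of chemokines, 2 rose and 1 fell (7.69% and 3.85%, against 4.93% and 3.06% of all tested genes), and the median log2 fold change was 0.23. Both that rose are extracellular sulfatases that trim heparan sulfate, the sugar that presents chemokines. Sulf1 had 606, 649 and 515 CPM in PTN libraries and 222, 308 and 296 CPM in Control libraries, 2.14-fold higher (log2 fold change 1.10 ± 0.18, SE, n = 3 each, edgeR adjusted p = 0.00884). Sulf2 was at 889 CPM in PTN and 492 CPM in Control cells, 1.81-fold higher (edgeR adjusted p = 0.0212, but up to 0.128 without any 1 of Control 1, Control 2 and Control 3). Mmp14, a membrane-bound metalloprotease, fell to 111 CPM in PTN cells, against 169 CPM in Control cells, 1.52-fold lower (edgeR adjusted p = 0.0324, but up to 0.126 without PTN 1 or any 1 Control library). The heparan sulfate core genes Sdc1, Sdc4 and Hspg2 were higher in all PTN libraries than in any Control library, with edgeR adjusted p of 0.0556, 0.0785 and 0.0594, and were not called. They were named after their values were seen, and the other core genes of the list are not reported here. Over this list PTN libraries lay wholly above Control libraries for 10 of the 26 tested genes and wholly below for 1. The shares over all tested genes were 15.7% and 17.1%.

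The last list holds cytokines, their receptors and the transcription factors known to switch on chemokine genes, and also inhibitors of NF-kB such as Tnfaip3. Of 31 tested, 3 rose and 0 fell (9.68%, against 4.93% called higher among all tested genes), with a median log2 fold change of 0.35. Nfkbiz, an atypical nuclear IkB protein needed for a set of secondary inflammatory genes, had 104, 126 and 140 CPM in PTN libraries and 41.9, 55.5 and 57.7 CPM in Control libraries, 2.39-fold higher (log2 fold change 1.26 ± 0.18, SE, n = 3 each, edgeR adjusted p = 0.0064). Tnfaip3, the ubiquitin-editing inhibitor of NF-kB, was at 4.99 CPM in PTN and 1.52 CPM in Control cells, 3.27-fold higher (edgeR adjusted p = 0.0118). Il1r1, the interleukin-1 receptor, was at 12.4 CPM in PTN and 5.87 CPM in Control cells, 2.11-fold higher (edgeR adjusted p = 0.0139). Tnfaip3 and Il1r1 were not called without any 1 of Control 1, Control 2 and Control 3, where the edgeR adjusted p reached 0.0596 and 0.0645.

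The cytokine genes themselves were at the detection limit. Il1b had 0 counts in all 6 libraries, Tnf had 0, 1 and 1 in PTN and 0, 0 and 0 in Control libraries, Il6 had 0, 0 and 0 in PTN and 0, 0 and 1 in Control libraries, and Il1a had 0, 1 and 0 in PTN and 2, 2 and 2 in Control libraries. The NF-kB subunit gene Rela was at 67.02 CPM in PTN and 59.5 CPM in Control cells and was not called (edgeR adjusted p = 0.547). Nfkbia, the classic IkB gene, was higher in every PTN library than in any Control library but was not called (edgeR adjusted p = 0.0589). Over this list PTN libraries lay wholly above Control libraries for 13 of 31 tested genes and wholly below for 2. The shares over all tested genes were 15.7% and 17.1%, so this trait was not particular to Nfkbia.

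**Figure D4:**
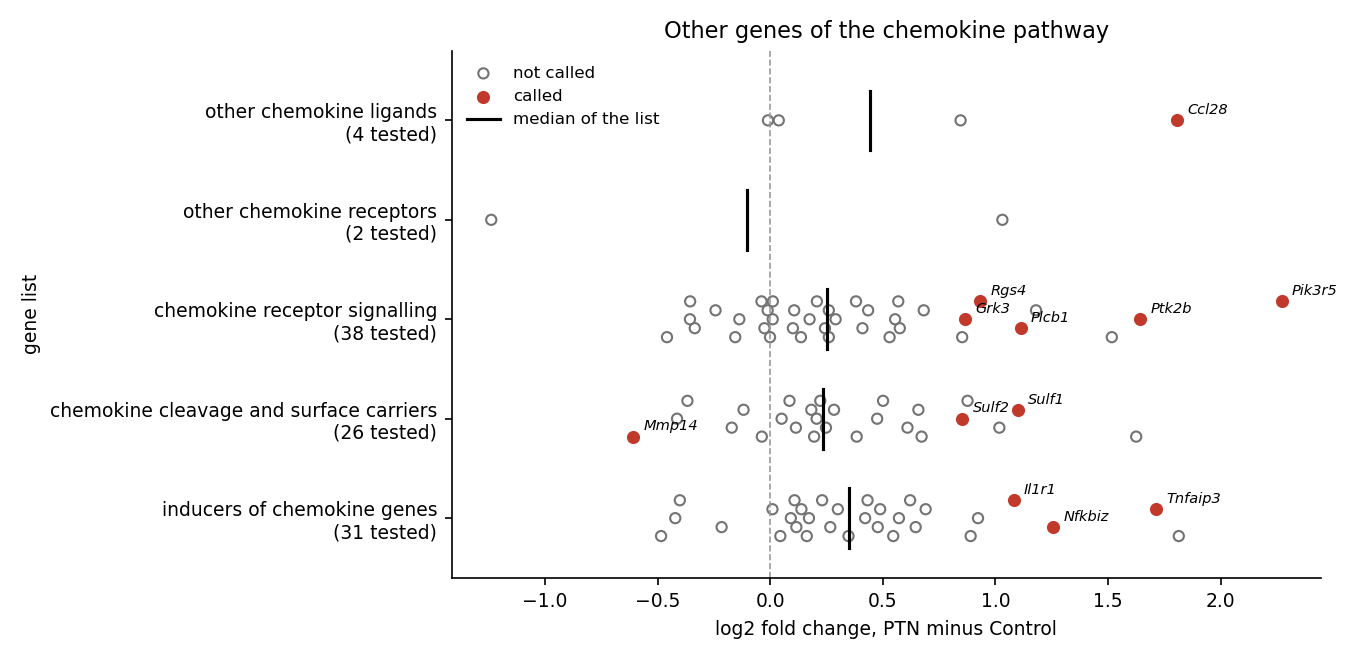
Log2 fold change, PTN minus Control, of every tested gene in 5 lists of other chemokine pathway genes, with a bar at the median of each list and filled points for genes called at an adjusted p under 0.05. Called genes lie to the right of 0 except Mmp14, and the other chemokine receptors have 2 tested genes and none called.

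Markers of other cells that make or receive chemokines were read in the same libraries. The 15 microglia and immune markers summed to 44.9 to 51.7 CPM in PTN and 40.9 to 44.2 CPM in Control libraries, so the sum was higher in every PTN library. Of these markers 12 did not pass the filter, with at most 16 counts in any library. Of 3 tested, 0 were called by edgeR's quasi-likelihood test and 0 had an unadjusted p under 0.05. PTN libraries lay wholly above Control libraries for 1 of them and wholly below for 0, against 15.7% and 17.1% of all tested genes. The groups overlapped for P2ry12 and Cd68, which had negative log2 fold changes. The median over the 3 was -0.21, so the higher sum was not shared by most tested markers. Csf1r, the receptor that sustains microglia, was not tested and had 0.310, 0.535 and 0.832 CPM in PTN libraries 1 to 3, against 0.127, 0.306 and 0.281 CPM in Control libraries 1 to 3, with every PTN library above every Control library. Other defining markers were near 0, Aif1 having 0, 0 and 0 counts in PTN and 1, 0 and 3 in Control libraries, and Tmem119 0, 0 and 0 in PTN and 1, 1 and 0 in Control libraries. The 12 fibroblast and meningeal markers summed to 118 to 169.5 CPM in PTN and 242 to 292 CPM in Control libraries. Of 10 tested, 5 were called lower and 1 higher (50% and 10%, against 3.06% and 4.93% of all tested genes). The 12 endothelial and mural markers summed to 24.1 to 41.2 CPM in PTN and 62.7 to 69.5 CPM in Control libraries. Of 7 tested, 1 was called lower and 0 higher (14.3% lower, against 3.06% of all tested genes). The 7 had a median log2 fold change of 0.12, with 4 positive and 3 negative, so the lower sum was not shared by most of them. The sums of both of these lists were therefore lower in the group in which Ccl2, Ccl7, Cxcl1, Cxcl5 and Cxcl10 were higher, and lower together with Cxcl14, and their part in these values was not tested.

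Genes whose pattern over the 6 libraries came closest to that of a member were named by the root mean square difference of centred log2(CPM + 0.5), over 12168 genes of at least 1 CPM. For Ccl2 these were Shisa3 (0.51), Rimbp2 (0.53), Cd40 (0.58), Cntnap4 (0.58) and Cacna1g (0.60), beside a median of 1.60 over all genes compared. Shisa3, a transmembrane modulator of Wnt and FGF receptors, had 56.0, 33.3 and 62.0 CPM in PTN libraries 1 to 3, against 7.23, 7.19 and 6.74 CPM in Control libraries 1 to 3. Cd40, a receptor of the TNF family, had 3.84, 2.76 and 6.50 CPM in PTN libraries 1 to 3, against 0.845, 0.573 and 0.421 CPM in Control libraries 1 to 3. Both had the PTN libraries in the order of Ccl2, with PTN 3 highest and PTN 2 lowest. They were picked for a pattern close to that of Ccl2, so this order adds nothing. Rimbp2 and Cntnap4 had it too, while Cacna1g, at 17.2, 17.8 and 24.1 CPM in PTN libraries 1 to 3, did not. For Cxcl12 the closest were Fras1 (0.083), Ckmt1 (0.11), Cacna1h (0.11), Jak3 (0.11) and Trim47 (0.11), beside a median of 0.54. A small difference is easier to reach for a gene that varies little, so the values of Ccl2 and Cxcl12 are not on equal terms.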

How the data were processed

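The RNA-seq libraries, 3 PTN and 3 Control (PBS) at 24 h, were grouped by their titles. Per the labels' protocols, RNA came from a column kit and libraries from a SMARTER mRNA kit. The aligner, counter, build and gene models were not given in the sources used here. Per the file headers, the authors deposited a count and an FPKM for each gene in every library. Some counts are not whole in the table the authors deposited, so they are called expected counts here. Columns were matched to samples by group initial and replicate number.

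Expected counts were rounded to whole numbers; none of the 10 genes had fractional ones, against 15.5% of tested genes. The edgeR filter filterByExpr kept 13161 of 22322 genes (59%), libraries were scaled by TMM (factors 0.993 to 1.01), and PTN was compared with Control by edgeR's quasi-likelihood test (edgeR 4.0.16, R 4.3.3), with Benjamini-Hochberg adjustment over all tested genes and a threshold of 0.05. The SE of a log2 fold change was computed as |log2 fold change| over sqrt(F). 1 CPM stands for 19.2 to 26.2 counts, and totals of that size leave genes under 1 CPM with few counts. Alternatives were other scalings, filters, DESeq2 1.42.0, limma-voom (limma 3.58.1), a replicate block, removal of a gene length trend and leaving out each library. The members and lists were chosen with earlier results of these data known. Values of some list genes are not reported here.

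Named were all 10 members, up to 6 called genes per pathway list by smallest p (with none called, the top gene by p), and the 5 genes closest in pattern to Ccl2 and to Cxcl12. Other list genes, including receptors of the named ligands and chromosomal neighbours, were added for their known relation to a member after their values were seen. Of the 46 genes the table annotates with chemokine activity, 38 are members or in the lists. Coding stretches are from GENCODE M21 and promoters from RefSeq, and their build was not compared with that of the counts, which have no coordinates.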

Additional observations from a re-analysis of the deposited data

How the results depend on the processing

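Over all genes, 1052 were called, 1908 by DESeq2 and 331 to 2177 when 1 library was left out. Of the 10 members, 6 were called, and 3 to 7 when 1 library was left out. DESeq2 called 7, with Ackr3 added, limma-voom 5, without Ccl7, and a filter of 1 CPM in 3 libraries left 4 called of 8 tested, since Ccl7 and Cxcl5 did not pass it. Genes called numbered 8 by DESeq2, 3 with the replicate block and 2 to 11 without 1 library in the receptor signalling list, 6, 1 and 1 to 6 in the list of cleavage and carriers, and 7 by DESeq2 and 1 to 5 without 1 library in the list of inducers. Other ligands and other receptors had 0 to 1 each without 1 library. The cause was not tested. The replicate block gave 726 calls over all genes. Of the called genes in the pathway lists, Rgs4, Plcb1, Sulf2 and Mmp14 were not called with it. Plcb1 also lost its call with DESeq2 size factors, by limma-voom and with the gene length trend removed. Libraries that share a number did not consistently deviate together (r across genes -0.56, 0.35 and -0.15), so the numbers were not taken as pairs. For unlike numbers r ran from -0.67 (PTN 3 with Control 2) to 0.62 (PTN 3 with Control 1). Cxcr4 reversed to a log2 fold change of -0.17 without PTN 2, and its values ranged from -0.17 to 0.37 without 1 library. Of 493 refits of the 33 named genes, 423 kept direction and call, 61 lost the call, 8 gained it and 1 turned direction. The scalings moved the median of all genes by less than 0.1 on the log2 scale. Counts under about 20 per library limit Ccl2, Ccl7 and Cxcl5 in Control cells, and most chemokine receptors in both groups.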
